A study of Mus musculus with 24 samples.

Results

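The MYC and MAX network was followed here as 10 genes: Myc, Mycn, Max, Mnt, Mxd1, Mxd3, Mxd4, Mxi1, Mlx and Mga. The members were chosen by symbol and not by a cut-off on measured values, but with earlier results of these data known. All 10 were among the 55414 genes listed in the count table, of which 25030 had a count in at least 1 library and 10566 had enough counts to be tested. Of the members, 9 passed that filter and Mycn did not.

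The RNA came from conventional CD4+ T cells (Tconv, CD4+ CD25-) isolated from mouse spleen with magnetic beads. The mice carried the same C57BL/6J nuclear genome and the mitochondrial DNA of either the C57BL/6J strain (called B6 here, and WT in the labels) or the NZB strain. Cells were either resting or activated for 72 h with CD28/CD3 beads plus IL-2, and whether the resting cells were kept in culture is not stated in the sources used here. Each of the 4 groups (B6 resting, B6 activated, NZB resting, NZB activated) held 6 libraries. The labels give no age or sex for a library, and the study used males of 2 to 3 months for most of its experiments. Nothing in the labels says whether the libraries of a group came from separate mice, and resting and activated libraries that share a number in their description, 9 pairs in all, may come from the same animal, so the p-values measure the spread between libraries, which may in part be technical. The comparisons ask how the network responds to activation in each mitochondrial background, and whether the backgrounds differ at rest, after activation or in their response.

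MYC is a transcription factor that binds DNA as a dimer with MAX and raises the expression of genes for ribosome production, metabolism and cell division, and in T cells it is known for driving the growth that follows stimulation of the antigen receptor. MNT, MXD1, MXD3, MXD4, MXI1 and MGA also dimerise with MAX, and recruit repressor complexes to the same class of sites. MLX is a MAX-like protein that pairs with MondoA (Mlxip) and ChREBP (Mlxipl), which respond to glucose products, and with some MXD proteins and MNT.

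The sequence these dimers bind is the E-box CACGTG, which is the same on both strands. The 300 bases around the start of each gene's canonical transcript (250 before the start and 50 from it on, GRCm39 genome with GENCODE vM39) were searched for it, since the members include both the proteins that bind this motif and genes that may carry it. The motif was found once in the windows of 4 of the 10 members, Max, Mxd3, Mxd4 and Mlx, and in 7.81% of the windows of all 21770 protein-coding genes searched. The 30 bases around each match are given 5′ to 3′ on the gene's strand, with the motif in capitals.
Max: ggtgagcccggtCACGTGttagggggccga
Mxd3: gcgtcccgcgcgCACGTGtagcccaggccg
Mxd4: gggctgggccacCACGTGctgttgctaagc
Mlx: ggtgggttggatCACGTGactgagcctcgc
The Max window lies at chr12:77009008-77009037 on the minus strand, with its motif 25 bases before the start. The Mxd3 window lies at chr13:55477810-55477839 on the minus strand, with its motif 223 bases before the start. The Mxd4 window (chr5:34345256-34345285, minus strand) and the Mlx window (chr11:100978064-100978093, plus strand) hold the motif 33 and 16 bases before the start. The related motif CACGCG was searched on both strands and was found once in the window of Mga and in no other member, and in 11.1% of all windows. A match describes these letters only. The counts come from the 3′ end of transcripts and do not show which start site was used.

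The RNA was sequenced by MARS-seq in bulk, a method that reads transcripts near their 3′ ends and marks captured molecules with unique molecular identifiers (UMIs) so that amplified copies count once. Levels are given in CPM, a gene's UMI count relative to the scaled UMI total of its library. Totals ranged from 2430562 to 5456681 UMIs in the 12 B6 libraries and from 641467 to 6449395 in 11 of the 12 NZB libraries. Resting NZB replicate 2 held 51409 UMIs, so that 1 count in it was worth 16.9 CPM and its 10 members summed to 35 counts. A second deposited table holds larger counts whose making is not given in the sources used here, and the ratio of its total to the UMI total split the libraries into 3 sets of 8 (ratios of 1.88 to 1.96, 2.11 to 2.24 and 2.68 to 2.80), and these sets were spread unevenly: the first held 5 of the 6 activated B6 libraries and the last held 4 of the 6 resting NZB libraries. T cell markers (Cd3d, Cd3e, Cd3g, Cd4, Trac, Thy1) were detected in every group and summed to 2983 to 6044 CPM per library. The summed activation markers (Il2ra, Tfrc, Mki67, Gzmb, Cd44) had medians of 101.45 and 103 CPM at rest and 929 and 698 CPM after activation in B6 and NZB. Of these 5 markers, 3 were called higher and 0 lower on activation in B6, and 3 higher and 1 lower in NZB. RNA of other cells was also present at rest: the summed level of 8 granulocyte markers ranged from 406 to 20322 CPM in resting libraries and from 7.43 to 178 CPM in activated ones, and all 8 were lower after activation in both backgrounds, as were all 5 monocyte and all 5 erythroid markers. Both CD8 T cell markers were higher after activation in both backgrounds, with medians of their sum going from 68.6 to 277 CPM in B6 and from 51.8 to 164 CPM in NZB, and so was the 1 platelet marker tested. The 5 B cell markers were called in neither background, with median sums of 410 and 544 CPM at rest and 512 and 455 CPM after activation. Of 2 NK cell markers tested, 1 was higher and 1 lower after activation in both backgrounds. Of 2 regulatory T cell markers (Foxp3, Ikzf2), 1 was lower after activation in B6 and 1 higher in NZB. Median sums of these 2 were 22.7 and 21.7 CPM in resting and activated B6 and 19.9 and 22.4 CPM in NZB. The highest sums were 38.8 and 46.0 CPM, in activated NZB replicates 1 and 2. The part of these cells in the network's changes was not tested. None of the granulocyte, monocyte or erythroid markers was at 0 throughout a group. In such bulk RNA, fewer cells of a type and less RNA per cell cannot be told apart.

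Of the 9 members tested, Mxd3 rose and Myc and Mxd1 fell on activation in B6 cells (edgeR quasi-likelihood test, adjusted p of at most 0.05 over all genes tested, no fold cut-off). That is 3 members called, against 46.9% of all genes called in that comparison (22.4% higher, 24.5% lower). In NZB cells 5 members were called, with Mxd3 higher and Mnt, Mxd1, Mxi1 and Mga lower, against 53.5% of all genes (25.2% higher, 28.4% lower). The share of members called on activation was thus below that of all genes in B6 and close to it in NZB. Between backgrounds at rest, Max and Mnt were higher in NZB cells, 2 of 9 against 2.76% of all genes (1.9% higher, 0.861% lower). Activated NZB and B6 cells gave 0 called members and 0% of all genes, with 327 genes and 1 member (Max) at an unadjusted p under 0.05 and 0 genes called by DESeq2. The test of whether the response itself differed between backgrounds also called 0 members and 0% of genes, with 1512 genes and 3 members (Mnt, Mxd3, Mxd4) at an unadjusted p under 0.05, and DESeq2 called 1 gene that was no member. Levels of all 10 members overlapped between activated NZB and activated B6 libraries, where 0.0284% of all genes were separated upward and 0.0284% downward.

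**Figure D1:**
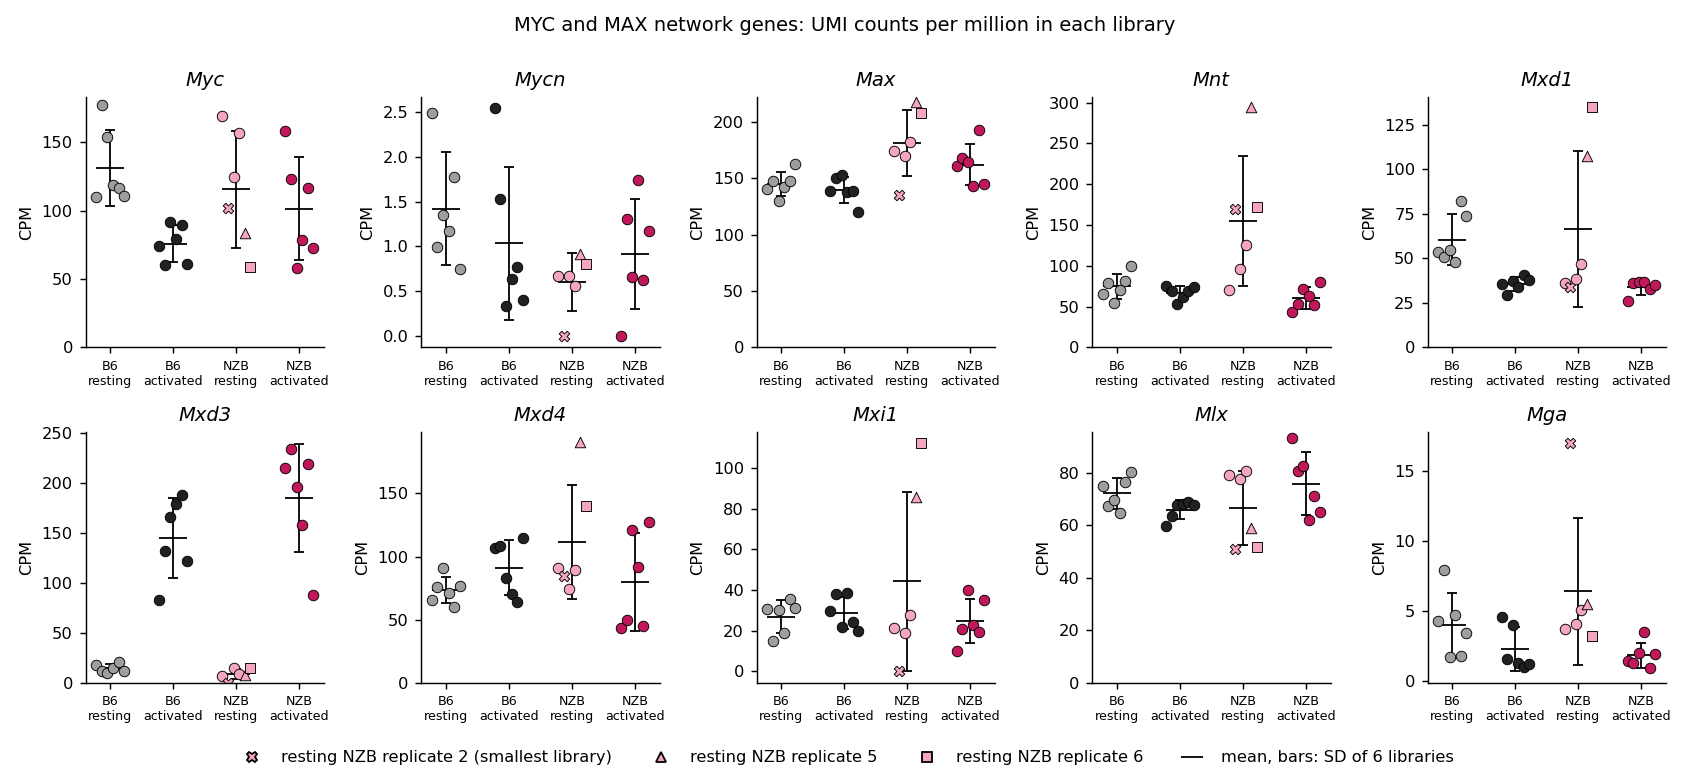
UMI level (CPM, vertical axes, each panel with its own scale) of the 10 members in each of 24 libraries, by group. Points are libraries, with special marks for resting NZB replicates 2, 5 and 6, and the bar and whiskers are the mean and SD of 6 libraries. Mxd3 of activated libraries lies at 82.7 CPM or more and that of resting libraries at 21.1 CPM or less.

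**Figure D2:**
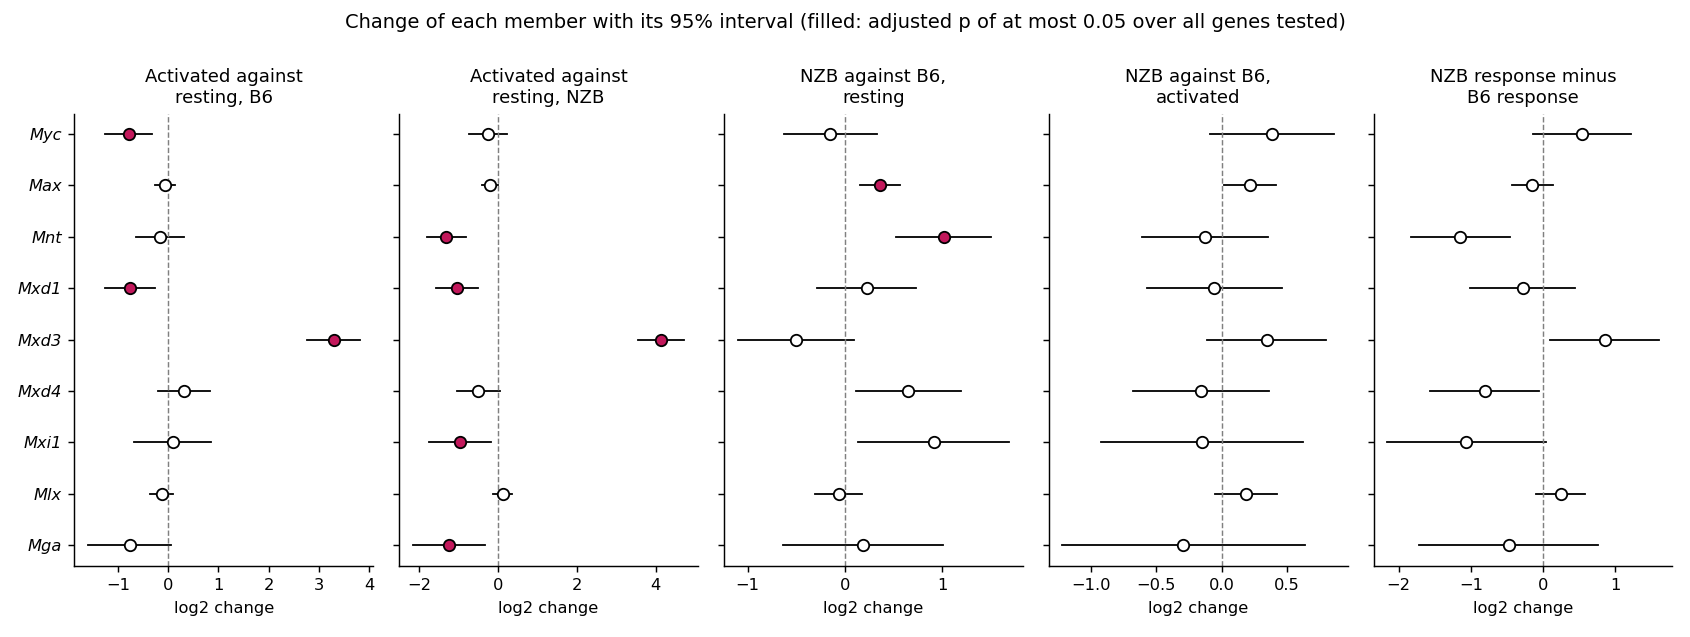
Fitted log2 change of the 9 tested members (horizontal axes, each panel with its own scale) in 5 comparisons, with 95% intervals from the fit over all genes. Filled points have an adjusted p of at most 0.05. Filled points number 3 and 5 in the activation panels, 2 in the resting panel and 0 in the others.

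Mxd3 encodes a MAX partner of the MXD repressor family that is known for its expression in proliferating cells, and it changed most among the members. In B6 cells its level ranged from 9.45 to 21.1 CPM at rest (median 13.3) and from 82.7 to 188 CPM after activation (median 149). In NZB cells it ranged from 0 to 14.5 CPM at rest (median 8.23) and from 88.0 to 233 CPM after activation (median 205), the 0 being the smallest library. Every activated library was above every resting library in both backgrounds, as for 15.4% and 11.9% of all genes. The means were 14.4 ± 4.29 and 145 ± 40.1 CPM in B6 and 8.73 ± 5.39 and 185 ± 54.1 CPM in NZB (SD, n = 6). The fitted log2 change was 3.29 ± 0.25 (SE, 9.80-fold, edgeR adjusted p = 1.4e-10) in B6 and 4.14 ± 0.29 (17.7-fold, edgeR adjusted p = 2.2e-11) in NZB. The response was 0.85 log2 units larger in NZB (95% interval 0.098 to 1.602), which did not pass correction (edgeR adjusted p = 0.30). Within the 3 library sets the activated minus resting difference of mean log2(CPM + 1) was 3.18, 4.59 and 5.096 in NZB and 3.75 in B6, where only the set in the middle held both states, with 1 activated library. In NZB the first 2 sets held 1 resting library each. The last 1000 bases of Mxd3 (chr13:55472981-55477908, minus strand) overlap Prelid1 on the opposite strand, and whether the counting used strand is not given in the sources used here. Prelid1 rose by 1.75 and 1.70 log2 units in B6 and NZB (edgeR adjusted p = 7.5e-12 and 2.3e-11). In CPM it went from 152 to 513 in B6 and from 175 to 558 in NZB, a larger gain than that of Mxd3, and its part in the Mxd3 counts was not tested.

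Myc (chr15:61857227-61862223, plus strand), the activating member of the network, was not higher in cells activated for 72 h. In B6 cells it ranged from 110 to 177 CPM at rest (median 118) and from 59.97 to 91.9 CPM after activation (median 76.7). All 6 activated libraries were below all 6 resting ones, as for 16.4% of all genes. Means were 131 ± 27.9 and 75.9 ± 13.8 CPM (SD, n = 6), a log2 change of -0.79 ± 0.23 (SE, edgeR adjusted p = 0.0063). In NZB cells it ranged from 58.6 to 169 CPM at rest (median 113) and from 58.2 to 158 CPM after activation (median 97.8). These groups overlapped over nearly their whole range, 6.95% of all genes being separated downward in NZB, and the log2 change of -0.25 (95% interval -0.74 to 0.24) did not pass the test (edgeR adjusted p = 0.38). The difference between the responses was 0.53 log2 units (95% interval -0.14 to 1.21, edgeR adjusted p = 0.46), so a difference between backgrounds was not shown. The call in B6 was lost when the library set entered the fit as a term (log2 change -0.70, edgeR adjusted p = 0.068), and the only set with B6 libraries of both states, 4 resting and 1 activated, gave an activated minus resting difference of mean log2(CPM + 1) of -0.61. In NZB the 3 sets gave -0.43, -0.77 and 0.032, the first 2 with 1 resting library each.

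Mycn (chr12:12986076-12992915, minus strand), the paralog of Myc best known from embryonic and neural tissue, was at the edge of detection. It summed to 32 and 23 counts over the 6 resting and 6 activated B6 libraries and to 10 and 20 counts over the NZB libraries. Means lay between 0.60 and 1.42 CPM in the 4 groups, the groups overlapped in each comparison, and the gene was not tested.

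Max (chr12:76984043-77009009, minus strand), the shared partner of the MYC, MXD, MNT and MGA proteins, changed little on activation, as did Mlx. It ranged from 130 to 163 CPM (median 145) in resting B6 cells and from 136 to 218 CPM (median 178) in resting NZB cells. The lowest NZB value came from the smallest library, where it rested on 8 counts, and the other 5 NZB libraries (170 to 218 CPM) all lay above the 6 B6 libraries. Such a separation was seen for 0.398% of all genes with every library and for 1.53% without the smallest. Means were 145 ± 10.9 and 181 ± 29.5 CPM, a log2 difference of 0.36 ± 0.10 (SE, n = 6, edgeR adjusted p = 0.046). The call was close to the threshold: leaving out single libraries kept the difference between 0.31 and 0.39 but ended the call for 17 of the 24 libraries, with the highest adjusted p (0.20, edgeR) without resting NZB replicate 5, and 5 of 8 other alternatives also ended it. On activation Max went from 145 to 140 CPM in B6 and from 181 to 162 CPM in NZB, with log2 changes of -0.06 (95% interval -0.25 to 0.14) and -0.20 (-0.41 to 0.00).

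Mnt (chr11:74721338-74736836, plus strand) encodes a large, widely expressed MAX partner that recruits the SIN3 corepressor and competes with MYC. In resting cells it ranged from 54.3 to 99.3 CPM in B6 (median 74.7) and from 70.4 to 295 CPM in NZB (median 147). After activation it ranged from 52.9 to 75.6 CPM in B6 (median 69.1) and from 43.1 to 80.2 CPM in NZB (median 57.6). The resting NZB group was both the highest and the widest, and its lowest library overlapped each of the others. The smallest library, at 169 CPM, rested on 10 counts of Mnt. Means were 75.1 ± 15.4 CPM in resting B6, 155 ± 79.4 in resting NZB, 66.9 ± 8.49 in activated B6 and 60.3 ± 13.8 in activated NZB (SD, n = 6). At rest the log2 difference between NZB and B6 was 1.02 ± 0.24 (SE, edgeR adjusted p = 0.031). On activation Mnt fell by 1.31 on the log2 scale in NZB (SE 0.24, edgeR adjusted p = 6.2e-05), whereas in B6 the log2 change was -0.17 (95% interval -0.64 to 0.31). The responses differed by -1.14 log2 units (95% interval -1.83 to -0.46), which did not pass correction over all genes (edgeR adjusted p = 0.21). The call at rest was lost without resting NZB replicate 5 (log2 0.66, edgeR adjusted p = 0.18), without any 1 of resting B6 replicates 1, 3, 4 and 5 (log2 0.92 to 1.05, adjusted p between 0.062 and 0.079), and with the library set as a term (log2 0.78, adjusted p = 0.14). The fall on activation in NZB stayed called under each alternative tried, between -1.48 and -0.82 log2 units, though none left out resting NZB replicates 5 and 6 together. Within the 3 library sets the activated minus resting difference of mean log2(CPM + 1) in NZB was -0.57, -0.29 and -1.685. The first 2 values rest on 1 resting library each, and the last set held resting NZB replicates 5 and 6 and the smallest library.

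Mxd1 (chr6:86624024-86646218, minus strand), a repressor known from differentiating cells, myeloid cells among them, was lower after activation in both backgrounds. In B6 it ranged from 48.2 to 82.4 CPM at rest (median 54.1) and from 29.4 to 40.9 CPM after activation (median 36.4). These groups did not overlap, as for 16.4% of all genes separated downward in B6. In NZB it ranged from 33.9 to 135 CPM at rest (median 42.8) and from 25.9 to 36.6 CPM after activation (median 35.6), and the groups overlapped at their edges. The log2 changes were -0.76 ± 0.24 (SE, n = 6, edgeR adjusted p = 0.012) in B6 and -1.05 ± 0.26 (edgeR adjusted p = 0.0013) in NZB. In B6 the call was lost with the library set as a term (log2 -0.45, edgeR adjusted p = 0.22), and the 1 set with B6 libraries of both states gave a difference of mean log2(CPM + 1) of -0.33. In NZB the sets gave -0.18, 0.00077 and -1.15, the first 2 with 1 resting library each and the last with 4 of the 6. Granulocyte markers moved with it in part: the highest Mxd1 levels in resting B6 cells, 82.4 and 74.1 CPM in replicates 5 and 6, went with the highest granulocyte marker sums of that group, 6259 and 7434 CPM, while replicate 1 with 4986 CPM of these markers had 53.6 CPM of Mxd1. In resting NZB cells the highest level, 135 CPM in replicate 6, went with 20322 CPM of granulocyte markers, but the next, 107.7 CPM in replicate 5, went with 406 CPM, the lowest sum of any resting library. The fall in NZB was still called without replicate 6, with the log2 changes over all single libraries left out between -1.21 and -0.70. No alternative left out replicates 5 and 6 together, and the other resting NZB libraries held 33.9 to 47.0 CPM of Mxd1. The part of other cells in the Mxd1 level was not tested.

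**Figure D3:**
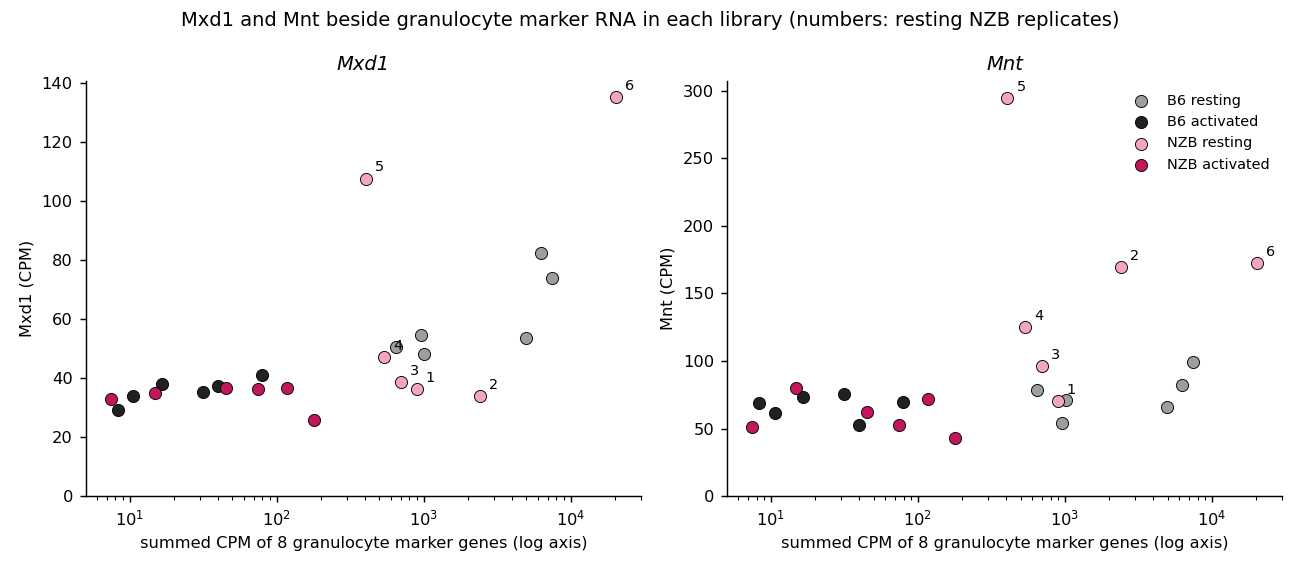
Level of Mxd1 (left) and Mnt (right) in CPM against the summed CPM of 8 granulocyte marker genes (log axis) in each of 24 libraries, coloured by group, with resting NZB replicates numbered. Replicates 5 and 6 have the highest Mxd1, at granulocyte sums of 406 and 20322 CPM. Mnt is highest in replicate 5.

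Mxd4 (chr5:34331227-34345240, minus strand) and Mxi1 (chr19:53298852-53364241, plus strand) encode further MAX partners of the MXD family. Mxd4 had means of 73.3 and 91.2 CPM in resting and activated B6 cells and of 112 and 79.7 CPM in NZB cells, with overlapping groups in each comparison. Its log2 changes on activation were 0.31 (95% interval -0.21 to 0.83) in B6 and -0.50 (-1.04 to 0.04) in NZB, neither called. An antisense gene, Mxd4os1, overlaps its last 1000 bases and was not among the genes tested. Mxi1 had means of 26.9 and 28.7 CPM in B6 and of 44.3 and 24.7 CPM in NZB. In resting NZB cells Mxi1 ranged from 0 to 112 CPM (median 24.5), against 10.1 to 39.9 CPM (median 21.8) after activation, so the medians were close while the mean at rest was drawn up by 85.7 and 112 CPM in replicates 5 and 6. Its log2 change of -0.97 ± 0.38 (SE, edgeR adjusted p = 0.036) in NZB was accordingly unsteady. It was lost on leaving out resting NZB replicate 5 (-0.72, adjusted p = 0.13), resting NZB replicate 6 (-0.49, adjusted p = 0.26) or any 1 of activated NZB replicates 1, 2, 4 and 5 (-0.93 to -0.87, adjusted p between 0.061 and 0.073), and under 6 of 9 other alternatives.

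Mlx (chr11:100978080-100983043, plus strand) was called in no comparison. Its group means lay between 66.0 and 75.9 CPM, and its log2 changes on activation were -0.13 (95% interval -0.36 to 0.10) in B6 and 0.12 (-0.13 to 0.36) in NZB. Psmc3ip, which overlaps the last 1000 bases of Mlx on the opposite strand, rose by 0.69 and 1.22 log2 units in the same comparisons. Mga (chr2:119727694-119800062, plus strand) encodes a very large MAX partner that is part of a Polycomb repressive complex, and was measured at few counts: 77 and 48 over the resting and activated B6 libraries and 62 and 35 over the NZB libraries. Its levels in NZB ranged from 3.21 to 16.9 CPM at rest (median 4.53) and from 0.93 to 3.49 CPM after activation (median 1.67), the highest value being a single count in the smallest library. The log2 change in NZB was -1.24 ± 0.45 (SE, edgeR adjusted p = 0.021), and it was lost without activated NZB replicate 5 (-1.09, adjusted p = 0.054), with a block by the number in the sample description (-0.81, adjusted p = 0.17), with DESeq2 (-1.28, adjusted p = 0.068) and with the second count table (-1.33, edgeR adjusted p = 0.086). In B6 it was -0.77 (95% interval -1.59 to 0.06, edgeR adjusted p = 0.12).

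Resting NZB replicates 5 and 6 stood apart in several members of the network, as was noticed after their values were seen. Between libraries, the chi-square over its degrees of freedom was 24.8 to 39.4 for these 2 against replicates 1, 3 and 4. Among replicates 1, 3 and 4 it was 5.48 to 8.23, and between resting B6 libraries it reached 33.2. Whether the network differed more than other genes in replicates 5 and 6 was not tested. In replicate 5 Mnt was at 295 CPM, Mxd4 at 191, Mxd1 at 107.7, Mxi1 at 85.7 and Max at 218 CPM. In replicate 6 the same genes were at 172, 140, 135, 112 and 208 CPM. In the other 4 resting NZB libraries Mnt ranged from 70.4 to 169 CPM, Mxd4 from 73.9 to 91.1, Mxd1 from 33.9 to 47.0, Mxi1 from 0 to 27.7 and Max from 136 to 182 CPM, so that each of these genes was higher in replicates 5 and 6. Myc went the other way, with 83.4 and 58.6 CPM in replicates 5 and 6 against 101.6 to 169 CPM in the other 4. Mlx, at 59.1 and 51.8 CPM, lay within the 50.8 to 80.6 CPM of the other 4. Mxd3 and Mga were not set apart in both replicates either, and Mycn had 2 counts in each. The 10 members summed to 1054 and 897 CPM in replicates 5 and 6 and to between 555 and 773 CPM in the remaining 22 libraries. Both libraries had totals near the group median (2642186 and 2711332 UMIs) and belonged to the set with the highest ratio of table totals, which also held resting NZB replicates 2 and 4. They differed in the RNA of other cells, with replicate 6 the highest and replicate 5 the lowest in granulocyte markers among resting libraries, and T cell markers summed to 4800 CPM in replicate 5 and to 2983 CPM, the lowest of all 24 libraries, in replicate 6. The part of these in the network levels was not tested.

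The make-up of the network's RNA is described by each member's share of the summed counts of the 10 members in a library, with no test. UMIs are counted per molecule at the 3′ end and are not scaled by length, and capture may differ between genes, so shares are compared between groups and not between genes. The share of Myc was 21.7 ± 4.32% in resting and 11.6 ± 1.76% in activated B6 cells (SD, n = 6), and 16.6 ± 7.76% and 13.9 ± 4.70% in NZB cells. The share of Mxd3 went from 2.41 ± 0.74% to 22.0 ± 5.25% in B6 and from 1.16 ± 0.79% to 25.1 ± 6.21% in NZB. In B6 the highest activated share of Myc, 13.6%, was below the lowest resting share, 17.0%. In NZB the activated range was 7.53% to 21.1%, and the resting shares of 17.1%, 20.1% and 7.92% in replicates 2, 3 and 5 lay within it. The share of 6.54% in replicate 6 lay below it. Mnt held 19.9 ± 7.06% of the counts in resting NZB cells and 12.4 ± 2.00%, 10.3 ± 1.72% and 8.42 ± 2.40% in resting B6, activated B6 and activated NZB cells. The share of Max stayed between 19.4% and 27.5% in each of the 24 libraries.

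**Figure D4:**
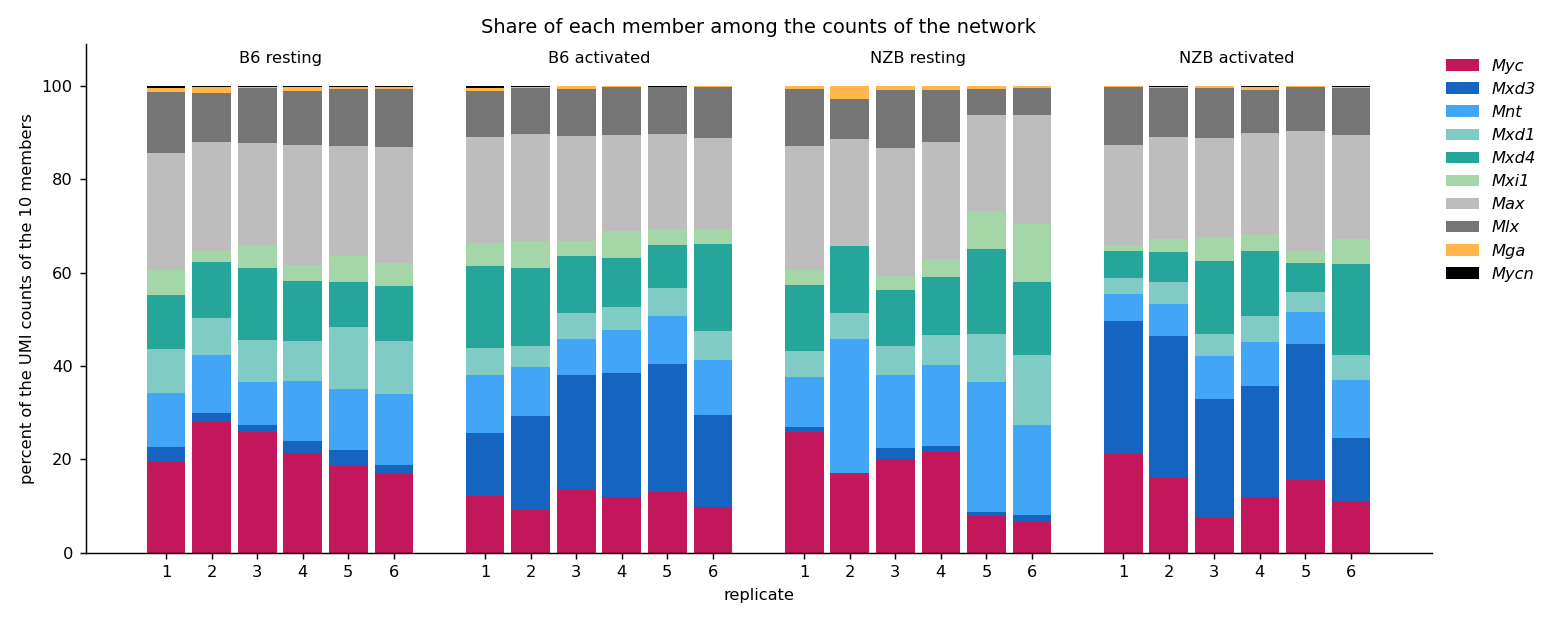
Share of each member among the summed UMI counts of the 10 members (vertical axis, percent) in each of 24 libraries, grouped by background and state, with the replicate number below each bar. The Mxd3 part widens from 3.37% or less at rest to 13.5% or more after activation, and the Myc part is smallest in resting NZB replicate 6, at 6.54%.

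Genes whose 4 group means followed a member most closely were ranked by the root mean square difference of centred group means on the log2 CPM scale, among 8125 genes tested with a mean of at least 10 CPM in a group. Predicted and unnamed genes were left out of these 8125. The nearest genes are given for the 3 members that changed most on activation. The nearest to Mxd3 were Pimreg (0.09 log2 units), Igfbp7 (0.22) and Mgarp (0.24). The nearest to Mga were Cggbp1, Avl9 and Unc45a, and to Mxd1 Specc1l, Mettl17 and Stx17, all at about 0.02 log2 units. With 4 groups such closeness is a description only, and the group means of Mga rest on 35 to 77 counts each.

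Of the genes that MYC is known to induce, more rose than fell on activation, while Myc RNA itself was called lower or not called. Of 44 such genes, all tested, 20 rose and 5 fell in B6 cells and 21 rose and 2 fell in NZB cells. Of all genes 22.4% rose and 24.5% fell in B6, and 25.2% rose and 28.4% fell in NZB. The list had median log2 changes of 0.33 and 0.54 against -0.03 and -0.06 over all genes tested. Tfrc is also among the activation markers. The largest changes called in both backgrounds were those of Shmt1, a serine hydroxymethyltransferase of one-carbon metabolism (log2 1.95 in B6 and 2.13 in NZB), and of the glycolytic genes Eno1, enolase (1.84 and 2.17), Ldha, lactate dehydrogenase A (1.87 and 1.91), and Pkm, pyruvate kinase (1.76 and 1.74). Ldha, for example, went from 565 ± 81.5 to 2061 ± 378 CPM in B6 and from 588 ± 81.9 to 2193 ± 387 CPM in NZB (SD, n = 6). Eno1 has a near-identical copy in the mouse genome, Eno1b, and how the counting divided their reads is not given in the sources used here. Those that fell were Slc3a2, a subunit of an amino acid transporter (-1.24 and -1.58), and Odc1, the first enzyme of polyamine synthesis (-0.66 and -1.003), in both backgrounds, and in B6 also Hspe1, Polr1b and Tert, which did not pass the test in NZB. In B6 the calls of Polr1b, Tert and Hspe1 were lost in 21, 14 and 5 of 33 alternatives, and the number of these targets that fell in B6 ranged from 2 to 6. These 5 were named after their values were seen, and the comparison of responses, the test of a difference between backgrounds, called 0 genes.

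Of 8 listed genes that MYC is known to repress 7 were tested, and 4 fell in each background, where 24.5% (B6) and 28.4% (NZB) of all genes were called lower: Gadd45a, a stress-induced growth arrest gene (log2 -3.42 in B6 and -2.98 in NZB), Cebpa, a myeloid transcription factor (-2.35 and -2.79), Foxo3, a transcription factor of quiescent cells (-1.79 and -2.18), and Cdkn1b, the cell cycle inhibitor p27 (-1.67 and -2.11). Gadd45a went from 135 ± 23.2 to 12.6 ± 0.56 CPM in B6 and from 104 ± 18.9 to 13.6 ± 5.65 CPM in NZB (SD, n = 6). Cebpa is also expressed by granulocytes and monocytes, whose markers fell in the same comparisons, and the part of these cells in its fall was not tested. Ndrg2 rose in both backgrounds (0.96 and 1.19) and Cdkn1a, the inhibitor p21, rose in B6 (1.54), both named after their values were seen.

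**Figure D5:**
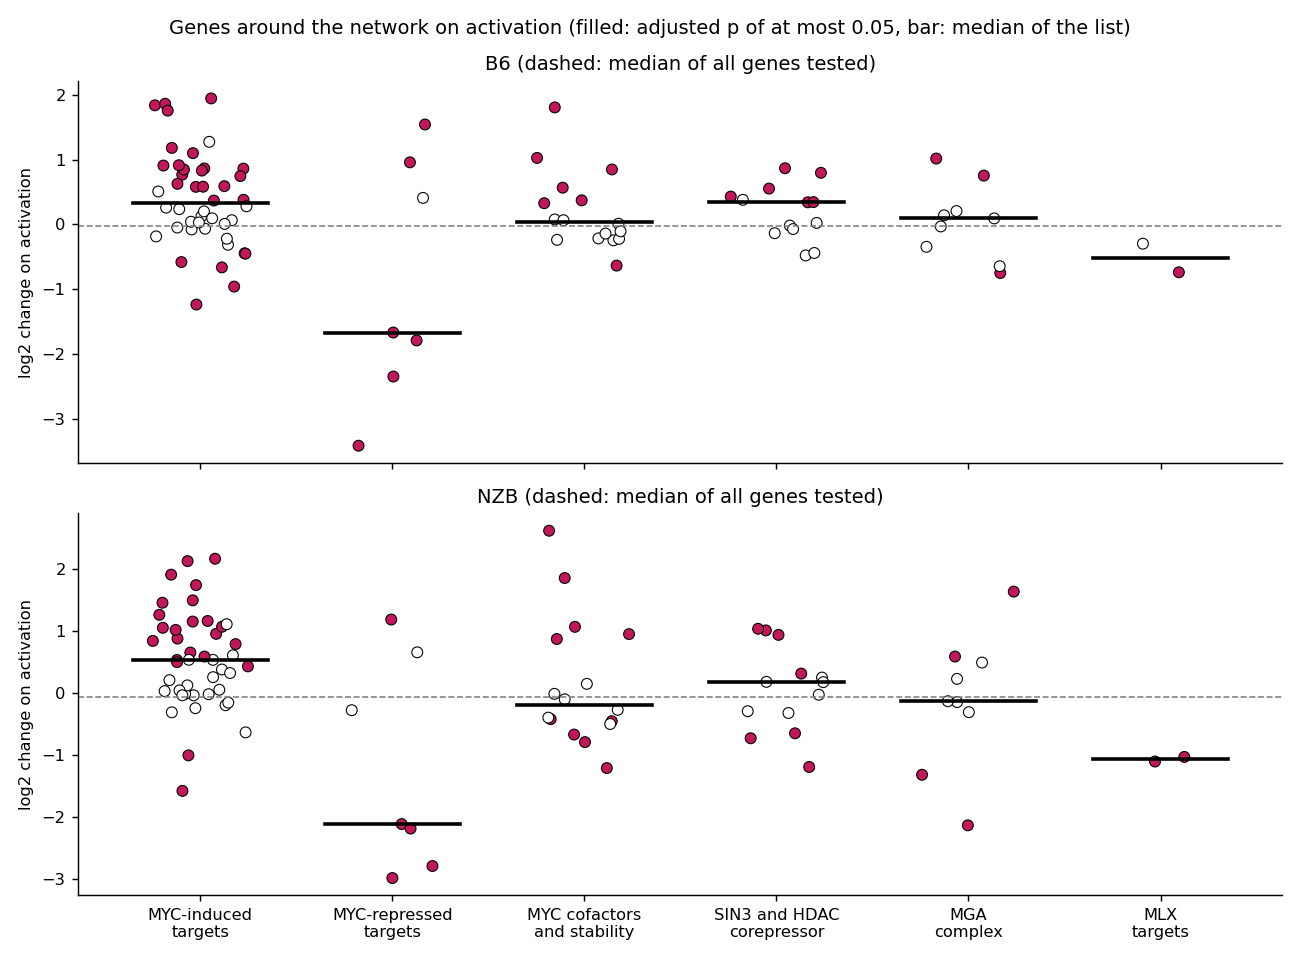
Log2 change on activation (vertical axis) of each tested gene of 6 lists around the network, in B6 (upper panel) and NZB (lower panel). Filled points have an adjusted p of at most 0.05, the bar is the median of the list and the dashed line the median of all genes tested. MYC-induced targets have medians of 0.33 and 0.54, and MYC-repressed targets of -1.67 and -2.11.

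Of 17 cofactors and regulators of MYC listed, 16 were tested, with 6 higher and 1 lower in B6 and 5 higher and 5 lower in NZB. These 7 and 10 of 16 are near the 46.9% and 53.5% of all genes called. The mitotic kinase gene Aurka, whose product stabilises MYC proteins (log2 1.81 in B6 and 2.62 in NZB), the ubiquitin ligase subunit gene Skp2 (1.03 and 1.86) and Actl6a, a chromatin remodeling subunit (0.85 and 0.87), rose in both backgrounds. Usp36, a deubiquitinase, fell in both (-0.64 and -1.21), and Ep400, Kat5 and Zbtb17, named after their values were seen, fell in NZB and did not pass the test in B6. The Ep400 call was lost in 9 of 33 alternatives. Of the SIN3 and HDAC corepressor that MXD proteins and MNT recruit, 13 of 14 listed genes were tested, with 6 higher and 0 lower in B6 and 4 higher and 3 lower in NZB, again near the 46.9% and 53.5% of all genes. Rbbp7 (0.87 and 1.04), Hdac1 (0.80 and 1.01), Rbbp4 (0.55 and 0.94) and Suds3 (0.35 and 0.32), all subunits of that complex, rose in both, and the 3 that fell in NZB were Arid4a, Arid4b and Ing2. Hdac1 ranged from 70.9 to 94.4 CPM in all resting and from 125 to 197 CPM in all activated libraries. Within a background, 15.4% (B6) and 11.9% (NZB) of all genes were separated upward on activation.

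The 9 genes of the MGA complex were all tested, with 2 higher and 1 lower in B6 and 2 higher and 2 lower in NZB, below the 46.9% and 53.5% of all genes. Tfdp1, the dimer partner of E2F proteins, rose in both backgrounds (1.02 and 1.64), and so did Cbx3, a heterochromatin protein (0.76 and 0.59). The Cbx3 call in NZB was lost in 21 of 33 alternatives, and its mean there went from 15.8 to 13.7 CPM, in the other direction to the fitted change, with 50.8 CPM from 3 counts in the smallest library. Of the genes named after their values were seen, Ring1 fell in B6 (-0.75), and Rnf2 (-1.32) and Rybp (-2.13) fell in NZB. Rybp was near the floor, at 0 to 14.2 CPM in resting NZB (median 4.38) and 0.44 to 2.62 CPM in activated NZB libraries (median 1.53). Of 3 further genes of the network listed beyond the members (Mycl, a MAX partner, and Mlxip and Mlxipl, partners of MLX), only Mlxip, which encodes MondoA, was tested, and it fell in NZB (-1.05) and not to a called extent in B6 (-0.35). Txnip, an inhibitor of glucose uptake and the best known MLX and MondoA target, fell from 440 ± 80.4 to 264 ± 42.7 CPM in B6 and from 642 ± 463 to 311 ± 84.2 CPM in NZB (log2 -0.74 and -1.10, edgeR adjusted p = 0.033 and 0.0021). The B6 call was lost in 9 of 33 alternatives. Arrdc4, a related target, fell in NZB (-1.03), a call lost in 11 of 33 alternatives (adjusted p up to 0.42, edgeR).

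At rest 1 of the 44 MYC-induced targets and 0 genes of the other lists were called between the backgrounds, against 2.76% of all genes. That target, Srm, spermidine synthase, was lower in NZB (82.0 ± 24.4 against 141 ± 34.1 CPM, log2 -0.65 ± 0.16, edgeR adjusted p = 0.033). It was lost without resting NZB replicate 5 (-0.62, adjusted p = 0.16) or without any 1 of resting B6 replicates 1, 3, 4 and 5 (-0.71 to -0.53, adjusted p between 0.061 and 0.084), with the second count table (-0.74, adjusted p = 0.069) and with the library set as a term (-0.67, adjusted p = 0.096). After activation Srm was at 182 ± 28.4 CPM in B6 and 201 ± 36.9 CPM in NZB, and no gene of the lists was called between backgrounds.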

How the data were processed

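Bulk MARS-seq libraries of Tconv CD4+ cells were analysed, 24 in all and 6 per group, grouped by the genotype and treatment in the labels. Per the study's methods and the submitters' processing notes, reads were trimmed with cutadapt (30 bases or longer kept), mapped with STAR to 3′ regions of 1000 bases in GRCm39 with Ensembl annotation, and counted with htseq-count (HTSeq), with versions not given in the sources used here. The authors deposited UMI-deduplicated, saturation-corrected counts, which are unscaled whole numbers, and a second table of larger counts, whose making is not given in the sources used here, used as an alternative. Reads of 3′ overlapping genes or copies can be divided between genes by this counting, and the tagging removes amplified duplicates. The methods give 60 ng of RNA per library and the labels 30 ng. Leaving aside the sample columns, 1 column could be tied to no sample and stayed out.

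The members and lists were chosen with earlier results of these data known. Counts were scaled by TMM, filtered by filterByExpr and fitted in 4 groups by edgeR 4.0.16 in R 4.3.3 (quasi-likelihood test, Benjamini-Hochberg adjustment over 10566 genes). The SE is the log2 change divided by the square root of F. Gene names and positions came from GENCODE vM39 by Ensembl identifier, and 210 genes with 0.0272% of the counts were outside it. Named list genes are the 4 with the largest mean change among those called in both activations, and others are named as chosen later. Some list genes are not reported here by name. On simulated counts for activation in B6 (10389 genes, 200 changed), 94.9% of genes changed by 2 log2 units and 65.3% of those changed by 1 were recovered. Only activated B6 libraries were changed there, and in far fewer genes than the 46.9% called in the data. These rates therefore do not give the recovery in the real comparisons. Depth limits low genes: 1 count was worth 0.15 to 1.44 CPM in 23 libraries and 16.9 CPM in the smallest. No libraries of a group were alike enough to be copies, the lowest chi-square over its degrees of freedom between any pair being 2.80. Alternatives were DESeq2 1.42.0, its size factors, no filter, a log2 cut-off of 1, the second table, fewer libraries, library set, replicate blocks and leaving out each library.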

Additional observations from a re-analysis of the deposited data

Results flagged for a closer look

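The levels of the 10 members were examined in each of the 4 groups for a library far from the other 5, which chance alone flags in about 1 of 20 groups, and 2 of 40 were found. Mxd1 was at 25.9 CPM in activated NZB replicate 1, a library of 641467 UMIs, against 32.8 to 36.6 CPM in the other 5 activated NZB libraries. Mga was at 16.9 CPM in resting NZB replicate 2, the smallest library, where this level is a single count, against 3.21 to 5.50 CPM in the other 5 resting NZB libraries.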

How the results depend on the processing

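The rise of Mxd3 in both backgrounds and the falls of Mnt and Mxd1 in NZB kept their direction and stayed called under each alternative tried. No alternative left out resting NZB replicates 5 and 6 together, which held the highest Mnt and Mxd1 levels of their group, so how far those falls rest on them was not tested. The number of members called on activation was 1 in B6 with a log2 cut-off of 1 and with the library set as a term, and 3 in NZB with DESeq2 and with the second count table. At rest it was 1 with a log2 cut-off of 1, with DESeq2's size factors, with no filter and with the second table, and 0 with the library set as a term. Leaving out each library gave 3 to 4 members in B6, 4 to 6 in NZB, 0 to 2 at rest, and 0 in the other comparisons; the share of Myc ranged from 20.4% to 22.7% and 11.2% to 12.1% in resting and activated B6 and from 14.7% to 18.6% and 12.5% to 15.2% in NZB. Direction changed only for members that were not called: with 21 libraries (without resting NZB replicates 2 and 6 and activated NZB replicate 6), Myc, Mxd1 and Mlx at rest came to 0.031, -0.099 and 0.041 log2 units and the Mxd1 difference of responses to 0.038. Leaving out single libraries took Max (-0.081 to 0.021) and Mxi1 (-0.029 to 0.19) on activation in B6, Myc (-0.31 to 0.010), Mxd1 (-0.12 to 0.39) and Mlx (-0.12 to 0.023) at rest, Mga after activation (-0.52 to 0.065) and the Mxd1 difference of responses (-0.44 to 0.061) across 0. The cause of these changes was not tested. Whether the numbers in the labels mark shared animals is not stated, and the libraries were not treated as paired: correlations of deviations from group means ran from -0.16 to 0.25 over 9 pairs by the number in the description and from -0.19 to 0.25 over 12 pairs by the title, over 0.1 in 3 and 4 of them. A replicate block by title number called 1 member at rest, one by description number called 3 members in NZB, and under it the Mga difference of responses was 0.025. Over the whole table, the 292 genes called at rest became 180 with DESeq2, 43 with the second table, 72 with the block by title number, 1 with the library set as a term, 0 to 587 with single libraries left out (0 without resting B6 replicate 4 or resting NZB replicate 5, 2 and 8 without resting B6 replicates 1 and 3) and 662 with the 21 libraries, with which 113 genes, none a member, also differed in their response. The alternatives for the lists were chosen after seeing the data: over 33 of them, 18 to 20 MYC-induced targets rose in B6 and 20 to 24 in NZB, and 4 MYC-repressed targets fell in each. Depth limits low genes such as Mycn, Mga and Rybp, and all values of the smallest library.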
